A study of Rattus norvegicus with 9 samples.

Results

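The genes described here are 10 that carry or report inflammatory signalling through the transcription factor NF-kB: the cytokines Il1a and Il1b, the chemokines Ccl2, Cxcl1 and Cxcl2, the receptors Tlr2 and Tlr4, the inflammasome sensor Nlrp3, the adhesion molecule Icam1 and the NF-kB inhibitor Nfkbia. They were chosen by symbol, and all 10 were present in both deposited count tables, among 15565 shared genes. Liver RNA was sequenced from male animals, labelled as strain SD, in 3 groups of 3 libraries. The title of high-fat diet replicate 1 has another prefix than those of the other high-fat diet libraries, and its meaning is not known here. The SCL-treated rats received Smilax china L., a medicinal plant, and their tissue is labelled as fatty liver, while the labels give neither a dose, a duration nor the diet of this group. The high-fat diet rats received 8 weeks of this diet as a model of non-alcoholic fatty liver, and the normal diet rats served as controls. The design text names the treated group SCS, which was taken as the same group. The labels do not say that each library came from a separate rat, so the p-values measure the spread between these libraries, which may be technical.

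In resting cells NF-kB dimers are held in the cytoplasm by inhibitors such as IkBa, the product of Nfkbia. Toll-like receptors and the interleukin-1 and TNF receptors lead to phosphorylation and loss of IkBa, after which NF-kB enters the nucleus and induces cytokines, chemokines, adhesion molecules and Nfkbia itself. In the liver, Kupffer cells, the resident macrophages, are a major source of interleukin-1 and chemokines, and sinusoidal endothelium carries ICAM-1, which holds passing leukocytes.

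The 250 bases before the start of each gene were read from RefSeq (rat assembly GRCr8) for 9 of the 10 genes. The NF-kB consensus site was searched on both strands as GGGRNNYYCC, where R is A or G, Y is C or T and N is any base. This strict pattern, 10 bases long, was found in the promoters of Cxcl1, Cxcl2, Nfkbia and Tlr2. It occurred in 6.33% of the 33469 promoters of that length, and it was not found in the windows of Il1a, Il1b, Icam1, Tlr4 and Nlrp3. A window without a match can still hold sites that depart from the pattern. The Icam1 window, for example, holds tggaaattcc, which departs from it in the opening base alone. The consensus was chosen after a looser pattern had been searched. The 4 promoters with a match are shown because they show where the pattern lies in a chemokine pair, an inhibitor and a receptor of the same pathway. Each is written 5′ to 3′ on the gene's own strand and ends at the base before the start, with matches on either strand in capitals, and overlapping matches run together.
Cxcl1, chr14:17479322-17479571, minus strand: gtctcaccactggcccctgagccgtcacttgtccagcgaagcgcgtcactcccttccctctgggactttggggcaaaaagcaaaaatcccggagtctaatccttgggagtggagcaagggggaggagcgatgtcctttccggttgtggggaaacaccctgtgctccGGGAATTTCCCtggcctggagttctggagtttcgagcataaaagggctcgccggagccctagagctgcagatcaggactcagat
Cxcl2, chr14:17467256-17467505, minus strand: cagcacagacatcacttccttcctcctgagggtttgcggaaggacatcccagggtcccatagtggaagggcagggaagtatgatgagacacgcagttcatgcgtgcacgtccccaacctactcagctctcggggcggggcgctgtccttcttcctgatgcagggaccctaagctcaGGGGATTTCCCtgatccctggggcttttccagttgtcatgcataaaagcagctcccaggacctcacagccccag
Nfkbia, chr6:78597073-78597322, minus strand: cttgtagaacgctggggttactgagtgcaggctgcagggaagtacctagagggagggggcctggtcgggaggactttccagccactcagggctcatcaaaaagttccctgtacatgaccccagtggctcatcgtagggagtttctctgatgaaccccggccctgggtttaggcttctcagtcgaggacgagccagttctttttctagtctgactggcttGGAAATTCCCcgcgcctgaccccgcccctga
Tlr2, chr2:171504558-171504807, minus strand: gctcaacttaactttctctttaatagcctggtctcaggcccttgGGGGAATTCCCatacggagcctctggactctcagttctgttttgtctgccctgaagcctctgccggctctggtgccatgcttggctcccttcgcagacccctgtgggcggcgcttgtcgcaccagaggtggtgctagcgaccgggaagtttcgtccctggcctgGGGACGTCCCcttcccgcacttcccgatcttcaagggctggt
In Cxcl1 the overlapping matches reach from 84 to 74 bases before the start, and in Cxcl2, on the same chromosome, from 74 to 64 bases. The Nfkbia promoter held a match from 31 to 22 bases before the start. Tlr2 held a match at 42 to 33 bases and overlapping matches from 206 to 196. A match describes letters in this window and is not evidence of binding.

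Libraries held 12413774 to 15521648 reads. Transcripts of the mitochondrial genome, 13 of them, took 3.85% to 18.8% of the reads in 7 libraries, and 49.0% in SCL-treated replicate 2 and 44.1% in high-fat diet replicate 3. These 2 libraries stand apart, so the fold changes printed for the members are also given without 1 or both of them. Levels below are CPM, each gene's share of a library's reads, on library sizes scaled by TMM unless FPKM, which also corrects for transcript length, is named.

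No member passed the test between any groups. In edgeR's quasi-likelihood test at an adjusted p under 0.05, 0 of the 9 members that had enough reads were called for the high-fat diet against the normal diet, where 0.0083% of all 12041 tested genes were called. SCL-treated against high-fat diet livers also gave 0 of 9, with 0.0% of all genes called, and SCL-treated against normal diet livers 0 of 9, with 0.0083% called. DESeq2 called 0 members in each comparison as well, beside 0.415% of all tested genes for high-fat diet against normal diet, 0.0083% between SCL-treated and high-fat diet livers and 0.332% between SCL-treated and normal diet livers. At an unadjusted p under 0.05, high-fat diet against normal diet gave 0 of 9 members, beside 4.32% of all tested genes, of which 2.77% were higher and 1.55% lower. SCL-treated against high-fat diet gave 0 of 9, beside 1.95% of all genes. SCL-treated against normal diet gave 1 of 9, Ccl2, beside 3.32% of all genes higher and 3.55% lower, 6.88% in all. The comparisons share libraries, so their results are not independent of each other.

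Ranked by the deposited FPKM averaged over the 9 libraries, Nfkbia was the most abundant transcript at 26.1 FPKM. Icam1 followed at 13.6, Il1a at 12.9 and Il1b at 7.15 FPKM. Below these stood Cxcl1 at 1.83, Ccl2 at 1.26, Tlr2 at 0.9497, Nlrp3 at 0.861 and Tlr4 at 0.601 FPKM, with Cxcl2 last at 0.221 FPKM. The ranges of each gene and its neighbour in this order overlapped over the 9 libraries, with 1 exception: Il1b ranged from 4.38 to 10.7 FPKM and Cxcl1 from 0.609 to 4.18 FPKM. Nfkbia and Icam1, for example, ranged from 14.1 to 41.0 FPKM and from 7.22 to 22.2 FPKM. The order thus splits into 4 genes of higher FPKM, which are the inhibitor, the adhesion molecule and both interleukins, and 6 of lower FPKM, which are the chemokines, the receptors and the sensor.

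**Figure D1:**
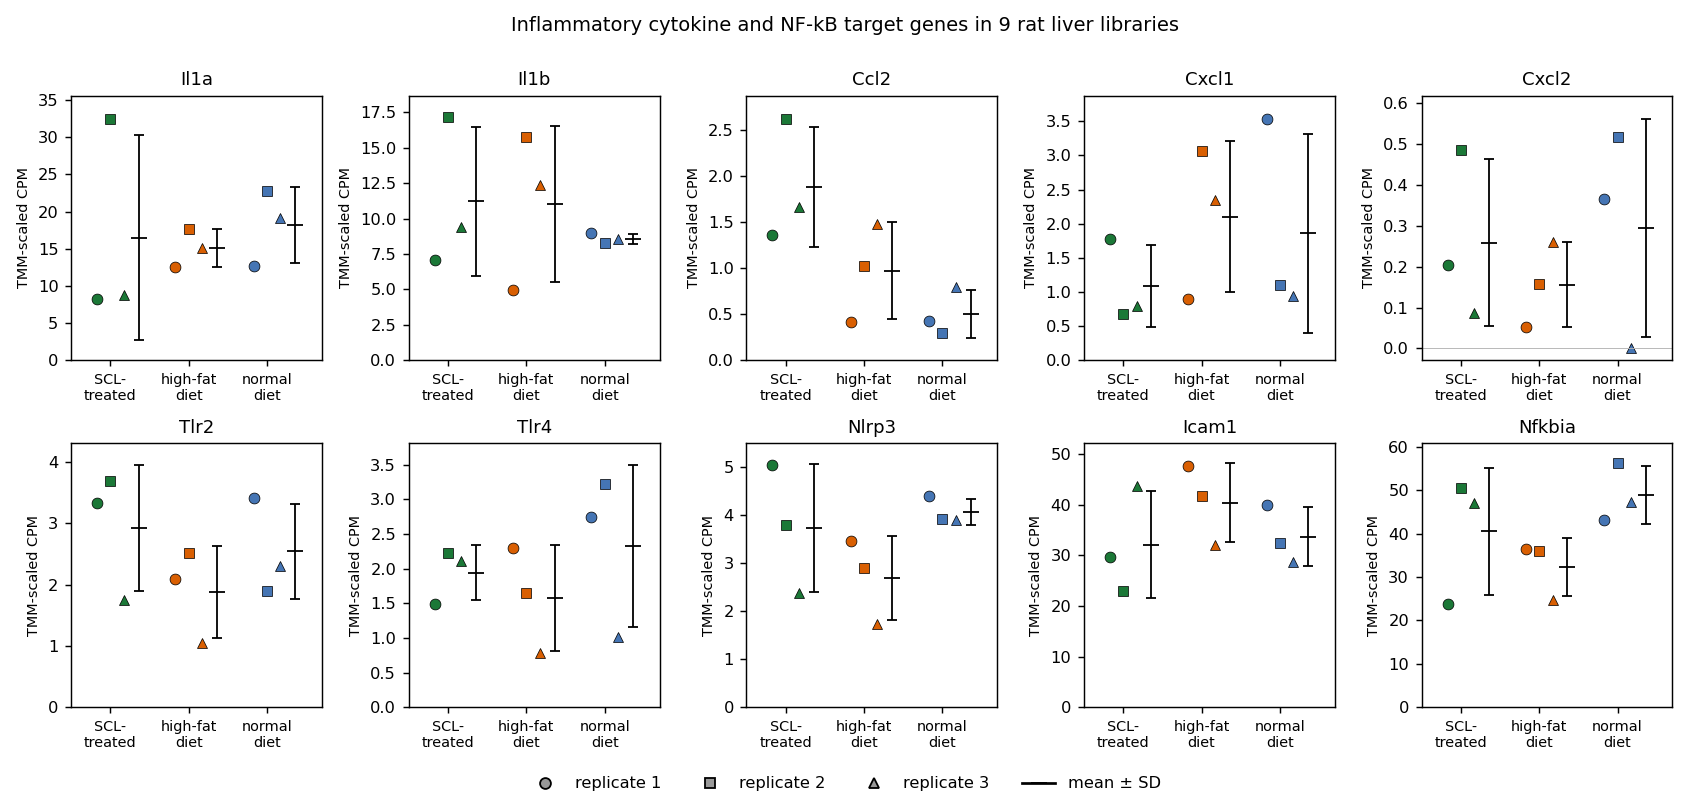
TMM-scaled CPM of the 10 genes (vertical axes, from 0) in each library by group, with points for replicates and bars for the mean ± SD of 3 libraries. The SCL-treated replicate 2 point is the highest for Il1a at 32.4 CPM, and Ccl2 shows 1.36 to 2.62 CPM in SCL-treated livers, above the 0.288 to 0.795 CPM of normal diet livers.

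Il1a encodes interleukin-1α, a cytokine held in cells and released on damage. Its level was 8.17, 32.4 and 8.77 CPM in SCL-treated livers, 12.5, 17.7 and 15.03 CPM in high-fat diet livers, and 12.7, 22.8 and 19.1 CPM in normal diet livers. SCL-treated replicate 2 was the highest of the 9 and the other SCL-treated libraries the lowest, so the groups overlapped. The coefficient of variation was 84.0% in SCL-treated, 17.2% in high-fat diet and 28.1% in normal diet livers. Fitted over all 3 libraries, the log2 fold change was 0.12 (SE 0.50) for SCL-treated over high-fat diet and -0.15 (SE 0.50) for SCL-treated over normal diet livers. Without SCL-treated replicate 2 these became -0.83 and -1.10, with unadjusted p of 0.0289 and 0.00757 and edgeR adjusted p of 0.696 and 0.769. That 1 library thus turned the direction of the first value and took away most of the size of the second. With the mitochondrial share as a covariate in the fit of all libraries, the 2 values were -0.10 and -0.89. Whether that share has a part in the level of this library was not tested. High-fat diet over normal diet livers gave -0.27 (SE 0.50), and -0.27 without the 2 libraries over 40% mitochondrial.

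Il1b encodes interleukin-1β, which is made as a precursor and cut by caspase-1 once an inflammasome has formed. It was measured at 7.08, 17.2 and 9.39 CPM in SCL-treated livers, 4.97, 15.8 and 12.3 CPM in high-fat diet livers, and 8.96, 8.24 and 8.53 CPM in normal diet livers. The normal diet libraries lay close together and inside the range of both other groups. The coefficient of variation was 47.2% in SCL-treated and 50.1% in high-fat diet livers, against 4.21% in normal diet livers; this difference in spread was not tested. The fitted log2 fold change was 0.36 (SE 0.44, edgeR adjusted p = 0.929) for high-fat diet over normal diet and 0.025 (SE 0.44, edgeR adjusted p = 1.00) for SCL-treated over high-fat diet livers. The first value was 0.0052 without high-fat diet replicate 2, 0.70 without high-fat diet replicate 1 and 0.27 without the 2 libraries over 40% mitochondrial, and the second was -0.33 without these 2.

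Ccl2 encodes the chemokine MCP-1, which draws monocytes through the receptor CCR2. It had 20, 27 and 19 reads in SCL-treated livers, 8, 13 and 17 reads in high-fat diet livers, and 7, 5 and 11 reads in normal diet livers. Scaled, these gave 1.36, 2.62 and 1.67 CPM in SCL-treated, 0.418, 1.02 and 1.48 CPM in high-fat diet and 0.426, 0.288 and 0.795 CPM in normal diet livers. Every SCL-treated library was above every normal diet library, while the high-fat diet libraries overlapped both groups. Summed over 3 libraries there were 66 reads in SCL-treated livers (exact Poisson 95% interval 51.0 to 84.0), 38 in high-fat diet livers (26.9 to 52.2) and 23 in normal diet livers (14.6 to 34.5), intervals that cover counting error only. The log2 fold change was 1.89 (SE 0.67) for SCL-treated over normal diet livers, with an unadjusted p of 0.0166 and an edgeR adjusted p of 0.665, and did not pass the test. The exact two-sided permutation test gave p = 0.1, the smallest that 3 against 3 libraries allow. The values for high-fat diet over normal diet, 0.93 (SE 0.67), and for SCL-treated over high-fat diet, 0.96 (SE 0.64), did not pass either, with edgeR adjusted p of 0.911 and 1.00. Without the 2 libraries over 40% mitochondrial, Ccl2 was 1.59 higher on the log2 scale in SCL-treated than in normal diet livers (unadjusted p = 0.0440, edgeR adjusted p = 0.662). The other values were then 0.50 for high-fat diet over normal diet and 1.09 for SCL-treated over high-fat diet livers. Transcripts of Ccr2, the receptor, were at 0 reads in 8 of the 9 libraries. The 6 monocyte marker genes in both tables were Ccr2, Fcnb, Vcan, S100a4, Lyz2 and Cd74. Their summed level was 352 to 605 CPM in SCL-treated, 182 to 772 CPM in high-fat diet and 220 to 403 CPM in normal diet livers. This sum rests on genes other than Ccr2 and is not a count of monocytes, and its part in the Ccl2 values was not tested. In whole-liver RNA, a change in the number of cells of a type and a change in RNA per cell cannot be told apart.

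Cxcl1 and Cxcl2 encode chemokines that attract neutrophils through CXCR2. Cxcl1 was at 1.77, 0.679 and 0.790 CPM in SCL-treated livers, 0.889, 3.06 and 2.35 CPM in high-fat diet livers, and 3.53, 1.09 and 0.940 CPM in normal diet livers. Normal diet replicate 1 was the highest library and SCL-treated replicate 2 the lowest, and no pair of groups was separate. SCL-treated over high-fat diet livers gave a log2 fold change of -0.92 (SE 0.71, edgeR adjusted p = 1.00), and high-fat diet over normal diet livers one of 0.16 (SE 0.69, edgeR adjusted p = 0.974). Without the 2 libraries over 40% mitochondrial these were -0.59 and 0.065. Cxcl2 did not pass the count filter: it had 3, 5 and 1 reads in SCL-treated, 1, 2 and 3 reads in high-fat diet, and 6, 9 and 0 reads in normal diet livers. A count of 0 in normal diet replicate 3 allows a level of up to 0.217 CPM of that library's total. The exact two-sided permutation test of Cxcl2 CPM gave p = 0.5 for high-fat diet against normal diet, 0.6 between SCL-treated and high-fat diet livers and 0.9 between SCL-treated and normal diet livers. No difference in Cxcl2 was detected at these low counts, and how large a difference could be missed was not computed. Neutrophil markers, 8 of 10 genes in both tables, summed to 8.42 to 14.8 CPM in SCL-treated, 1.62 to 36.1 CPM in high-fat diet and 5.85 to 8.58 CPM in normal diet livers. Camp, one of these markers, was at 0 in 7 of the 9 libraries, and the part of neutrophils in the chemokine values was not tested.

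Tlr2 encodes a receptor for bacterial lipoproteins, and Tlr4 the receptor for lipopolysaccharide. Tlr2 stood at 3.33, 3.69 and 1.75 CPM in SCL-treated livers, 2.09, 2.51 and 1.04 CPM in high-fat diet livers, and 3.41, 1.90 and 2.31 CPM in normal diet livers. Tlr4 stood at 1.497, 2.23 and 2.11 CPM in SCL-treated livers, 2.30, 1.65 and 0.782 CPM in high-fat diet livers, and 2.74, 3.23 and 1.01 CPM in normal diet livers. High-fat diet replicate 3 was the lowest library for both receptors, and all groups overlapped. High-fat diet over normal diet livers gave a log2 fold change of -0.43 (SE 0.49, edgeR adjusted p = 0.927) for Tlr2 and -0.55 (SE 0.56, edgeR adjusted p = 0.915) for Tlr4. For SCL-treated over high-fat diet livers it was 0.63 (SE 0.49) for Tlr2 and 0.28 (SE 0.57) for Tlr4, both with an edgeR adjusted p of 1.00. Without high-fat diet replicate 3, the high-fat diet over normal diet values were -0.15 for Tlr2 and -0.24 for Tlr4. Without both libraries over 40% mitochondrial, the SCL-treated over high-fat diet values were 0.15 for Tlr2 and -0.14 for Tlr4.

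Nlrp3 encodes the sensor of the inflammasome that activates caspase-1. Its level was 5.04, 3.78 and 2.37 CPM in SCL-treated livers, 3.45, 2.91 and 1.74 CPM in high-fat diet livers, and 4.39, 3.92 and 3.904 CPM in normal diet livers. All 3 high-fat diet libraries were under all 3 normal diet libraries, and the SCL-treated libraries reached from below to above the normal diet range. The log2 fold change of high-fat diet over normal diet livers was -0.58 (SE 0.41, edgeR adjusted p = 0.911), with an exact two-sided permutation p of 0.1, the smallest possible. The mean was 3.73 ± 1.33 CPM in SCL-treated, 2.698 ± 0.875 CPM in high-fat diet and 4.07 ± 0.275 CPM in normal diet livers (SD, n = 3 libraries each). SCL-treated over high-fat diet livers gave 0.46 (SE 0.41, edgeR adjusted p = 1.00). Without the 2 libraries over 40% mitochondrial these were -0.35 and 0.22, and high-fat diet and normal diet livers stayed separate. They overlapped under unscaled library totals, and so in the deposited FPKM, which follows those totals. They also overlapped when scaled to non-mitochondrial reads. These settings were chosen after the values had been seen.

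Icam1 encodes the adhesion molecule ICAM-1, an NF-kB target on endothelium and leukocytes. It was measured at 29.6, 23.0 and 43.6 CPM in SCL-treated livers, 47.5, 41.7 and 32.0 CPM in high-fat diet livers, and 39.97, 32.4 and 28.7 CPM in normal diet livers. The highest library was high-fat diet replicate 1, the lowest SCL-treated replicate 2, and all groups overlapped. In the fit, the log2 fold change was 0.26 (SE 0.29, edgeR adjusted p = 0.925) for high-fat diet over normal diet and -0.33 (SE 0.29, edgeR adjusted p = 1.00) for SCL-treated over high-fat diet livers. When the 2 libraries over 40% mitochondrial were left out, both remaining high-fat diet libraries were above all normal diet libraries, and the log2 fold change was 0.40 (unadjusted p = 0.153, edgeR adjusted p = 1.00). SCL-treated over high-fat diet livers then gave -0.29.

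Nfkbia encodes IkBa, which NF-kB induces and which in turn retains it in the cytoplasm. Its level was 23.8, 50.5 and 47.1 CPM in SCL-treated livers, 36.5, 35.96 and 24.7 CPM in high-fat diet livers, and 43.1, 56.2 and 47.1 CPM in normal diet livers. The high-fat diet libraries all lay below the normal diet libraries, and the SCL-treated libraries spanned nearly the range of both. The mean was 32.4 ± 6.68 CPM in high-fat diet and 48.8 ± 6.71 CPM in normal diet livers (SD, n = 3 libraries each). Its log2 fold change was -0.59 (SE 0.32, unadjusted p = 0.0893, edgeR adjusted p = 0.911), and the exact two-sided permutation test gave p = 0.1. Without the 2 libraries over 40% mitochondrial it was -0.43. In the authors' deposited table, which gives normal diet over high-fat diet, the log2 fold change was 0.60 with an adjusted p of 0.724. The SCL-treated over high-fat diet value was 0.32 (SE 0.32, edgeR adjusted p = 1.00), and -0.032 without the 2 libraries over 40% mitochondrial. Nfkbia was lower in all high-fat diet than in all normal diet libraries under unscaled totals, and so in deposited FPKM, which follows those totals. It was also lower when scaled to reads without mitochondrial transcripts, and without those 2 libraries. These settings were chosen after the values had been seen.

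Groups of CPM values that did not overlap were thus found for 2 of 9 tested members, Nfkbia and Nlrp3, both lower in high-fat diet than in normal diet livers, where 5.27% of all tested genes were separate in that direction, 5.33% in the other and 10.6% in either. SCL-treated and high-fat diet livers were separate for 0 of 9 members, against 4.78% of all genes in either direction. SCL-treated livers were separate from, and above, normal diet livers for 1 of 9, Ccl2, against 7.47% of all genes in that direction, 7.81% in the other and 15.3% in either. With 9 members these counts are small. The median log2 fold change of the 9 was -0.27 for high-fat diet over normal diet livers, with 4 above 0 and 5 below, beside 0.034 over all tested genes. It was 0.28 for SCL-treated over high-fat diet livers, with 7 above 0 and 2 below, beside -0.031; without the 2 libraries over 40% mitochondrial it was -0.14, with 3 above 0 and 6 below, beside -0.052. For SCL-treated over normal diet livers it was -0.12, with 3 above 0 and 6 below, beside 0.026.

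**Figure D2:**
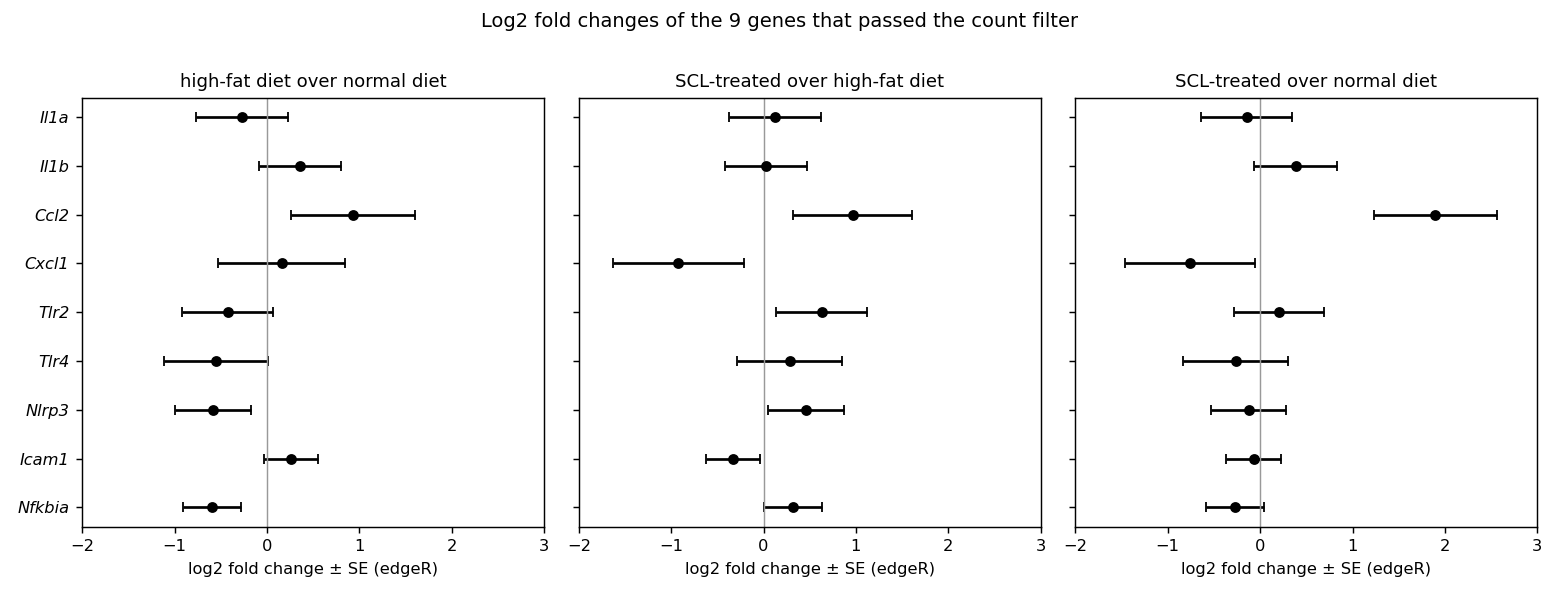
Log2 fold change (horizontal axes) of the 9 genes with enough reads, in the 3 comparisons, with bars of 1 SE from edgeR's fit on all 9 libraries. Ccl2 in SCL-treated over normal diet livers lies farthest from 0, at 1.89 ± 0.67, and no gene passed the adjusted threshold of 0.05.

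The genes differed in how far they ranged. Over the 9 libraries the highest CPM divided by the lowest was 9.10 for Ccl2, 5.203 for Cxcl1, 4.13 for Tlr4 and 3.97 for Il1a. It was 2.36 for Nfkbia and 2.07 for Icam1, the most abundant pair. SCL-treated replicate 2 held the highest CPM of Il1a, Il1b, Ccl2 and Tlr2 and the lowest of Cxcl1 and Icam1. High-fat diet replicate 3 held the lowest CPM of Tlr2, Tlr4 and Nlrp3. These are the 2 libraries over 40% mitochondrial. Fits with that share as a covariate are given in the closing section, and its part in these extremes was not tested. The median coefficient of variation of the 9 was 35.8% in SCL-treated, 40.2% in high-fat diet and 28.1% in normal diet livers, beside 32.7%, 36.2% and 22.7% over all tested genes in those groups.

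A ratio of a pair of genes within a library does not depend on how the library is scaled, and 2 such ratios were taken after the counts had been seen. Icam1 over Nfkbia, an adhesion target over the inhibitor, was 0.736, 0.270 and 0.548 in SCL-treated livers, 0.771, 0.687 and 0.767 in high-fat diet livers, and 0.549, 0.342 and 0.361 in normal diet livers, as ratios of FPKM. Every high-fat diet library was above every normal diet library, and the SCL-treated libraries reached across both. Nfkbia, the denominator, was already separate and lower in high-fat diet libraries, so this separation partly follows from the choice of pair. The mean ratio was 0.742 ± 0.0478 in high-fat diet and 0.417 ± 0.114 in normal diet livers (SD, n = 3 libraries each; exact two-sided permutation p = 0.1). In SCL-treated livers it was 0.518 ± 0.234, with an exact permutation p of 0.2 against high-fat diet and 0.7 against normal diet livers. Il1a over Il1b was 1.27, 2.07 and 1.03 in SCL-treated livers, 2.76, 1.23 and 1.34 in high-fat diet livers, and 1.55, 3.03 and 2.46 in normal diet livers. These groups overlapped, and the exact two-sided permutation p was 0.4 for high-fat diet against normal diet, 0.6 between SCL-treated and high-fat diet livers and 0.2 between SCL-treated and normal diet livers.

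**Figure D3:**
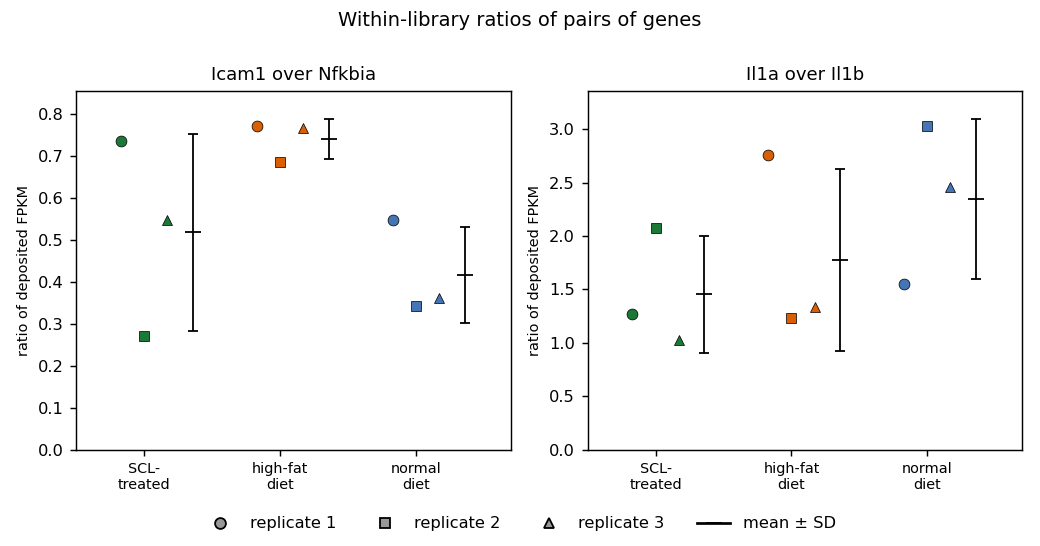
Ratio of deposited FPKM (vertical axes, from 0) of Icam1 over Nfkbia and of Il1a over Il1b in each library by group, with points for replicates and bars for the mean ± SD. Icam1 over Nfkbia lies between 0.687 and 0.771 in high-fat diet livers and between 0.342 and 0.549 in normal diet livers.

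For each tested member, the genes nearest in pattern were found by the root mean square difference of mean-centred log2 CPM, with 0.5 CPM added, over the 9 libraries. Nlrp3 lay nearest to Rnf145 at 0.10 and Slc12a2 at 0.11, and Icam1 to Gatad2a at 0.13 and Prdm11 at 0.14. Ccl2 lay nearest to Tmem53 at 0.17 and Rfc4 at 0.19, Tlr4 to Gosr1 at 0.18 and Epb41l5 at 0.20, and Il1b to Layn at 0.19 and Fam92a at 0.20. For Nfkbia the nearest were Gcnt2 and Snx1, both at 0.21, and for Tlr2 Rnf145 and Mb21d2, both at 0.22. Il1a and its nearest genes, Thbd and Spats2l, differed by 0.25, and Cxcl1 differed from Nab2 by 0.27 and from Kif26a by 0.32. Tlr2 and Nlrp3 shared Rnf145 among their nearest genes and were each other's nearest member: Nlrp3 ranked 4 among all genes for Tlr2, at 0.24, and Tlr2 ranked 30 for Nlrp3. The nearest member of each other gene ranked 585 or farther. The root mean square of each member around its own mean ran from 0.32 for Icam1 to 0.63 for Cxcl1. The differences are therefore not comparable between members. All 9 points carry the library effects described above.

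Beyond the 10 members, 6 lists of pathway genes were examined, holding 154 genes, of which 141 were in both tables and 120 were tested. Of these, edgeR and its adjustment over all genes called 0 in each comparison. At an unadjusted p under 0.05, high-fat diet against normal diet gave 2 higher and 3 lower, 4.17% of the 120 beside 4.32% of all genes. SCL-treated against high-fat diet gave 0, beside 1.95% of all genes, and SCL-treated against normal diet gave 4 higher and 7 lower, 9.17% beside 6.88%. Groups were separate for 6 higher and 13 lower of the 120 in high-fat diet against normal diet, beside 5.33% and 5.27% of all genes. SCL-treated against high-fat diet had 1 higher and 2 lower, beside 2.36% and 2.43%. For SCL-treated against normal diet these were 10 higher and 9 lower, beside 7.47% and 7.81%. The genes named below were picked for a small unadjusted p, so separate groups among them partly follow from that choice. Tnf was not analysed here. Il6 was in the table of high-fat diet and normal diet livers alone, with 4 reads in normal diet replicate 3 and 0 in the other 5 libraries.

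The list of interleukin-1, TNF and related ligands and receptors, with 15 genes tested, had a median log2 fold change of -0.70 for high-fat diet over normal diet livers, -0.52 for SCL-treated over normal diet livers and 0.0040 for SCL-treated over high-fat diet livers. Il1rn, the receptor antagonist of interleukin-1, was at 24.0, 14.2 and 8.43 CPM in high-fat diet livers, against 36.9, 70.2 and 18.6 CPM in normal diet livers (log2 fold change -1.43, SE 0.51, edgeR adjusted p = 0.911). These groups overlapped through normal diet replicate 3. Il1r1, the signalling receptor of interleukin-1, was at 16.5, 16.1 and 11.8 CPM in SCL-treated livers, against 96.99, 86.8 and 17.4 CPM in normal diet livers (log2 fold change -2.18, SE 0.63, edgeR adjusted p = 0.665). Il6st, the gp130 subunit shared by interleukin-6 family receptors, was at 25.2, 20.4 and 15.4 CPM in SCL-treated livers, against 138.6, 137.8 and 33.2 CPM in normal diet livers (log2 fold change -2.34, SE 0.69, edgeR adjusted p = 0.665). In both receptors normal diet replicate 3 lay near the SCL-treated libraries and far from the other normal diet libraries. Tnfsf10, which encodes the ligand TRAIL, had a log2 fold change of -0.76 (SE 0.31) for high-fat diet over normal diet livers, and Il10rb, a subunit of the interleukin-10 receptor, one of 0.48 (SE 0.26) for SCL-treated over high-fat diet livers, each with groups that did not overlap.

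Among chemokines and their receptors, 23 tested, the median log2 fold change was 0.42 for high-fat diet over normal diet, 0.45 for SCL-treated over normal diet and -0.020 for SCL-treated over high-fat diet livers. Cxcl9, a ligand of the chemokine receptor CXCR3 on T cells, was at 18.8, 25.6 and 25.4 CPM in SCL-treated livers, 16.1, 40.9 and 13.7 CPM in high-fat diet livers, and 12.5, 8.81 and 13.1 CPM in normal diet livers. All 6 SCL-treated and high-fat diet libraries were above all normal diet libraries, with log2 fold changes of 1.02 (SE 0.41, edgeR adjusted p = 0.665) and 1.04 (SE 0.41, edgeR adjusted p = 0.911). Without high-fat diet replicate 2, the Cxcl9 value for high-fat diet over normal diet livers was 0.38. Cxcl13, which attracts B cells, gave 1.40 (SE 0.57) for SCL-treated and 1.15 (SE 0.57) for high-fat diet over normal diet livers. The high-fat diet and normal diet libraries overlapped for Cxcl13, and without high-fat diet replicate 2 the value was 0.19. For SCL-treated over high-fat diet livers, Cx3cl1, the chemokine fractalkine, gave -1.10 (SE 0.51). Its groups were separate by a small margin, with the highest SCL-treated library at 1.55 CPM and the lowest high-fat diet library at 1.57 CPM. Cxcr4, the receptor of CXCL12, gave -0.49 (SE 0.47) in the same comparison, with overlapping groups.

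Among Toll-like receptors and their adaptors, 23 tested, medians were 0.089 for high-fat diet over normal diet, -0.027 for SCL-treated over normal diet and 0.034 for SCL-treated over high-fat diet livers. Tlr3, a receptor of double-stranded RNA, was at 9.93, 12.4 and 12.1 CPM in SCL-treated livers, 13.3, 10.4 and 9.90 CPM in high-fat diet livers, and 16.998, 16.4 and 14.7 CPM in normal diet livers. Normal diet libraries were thus all above the other 6, and the log2 fold changes were -0.48 (SE 0.25, edgeR adjusted p = 0.665) for SCL-treated and -0.52 (SE 0.25, edgeR adjusted p = 0.911) for high-fat diet over normal diet livers. Lbp, which passes lipopolysaccharide to CD14 and TLR4, was at 163.6, 90.5 and 166.0 CPM in SCL-treated livers, 120.1, 104.4 and 63.1 CPM in high-fat diet livers, and 167.8, 123.7 and 147.5 CPM in normal diet livers. The high-fat diet libraries were all below the normal diet libraries for Lbp, with a log2 fold change of -0.61 (SE 0.34, edgeR adjusted p = 0.911). Cd14, the co-receptor, gave 0.78 (SE 0.43) for SCL-treated over high-fat diet livers, and Cd36, a scavenger and fatty acid receptor, gave 0.93 (SE 0.55) for SCL-treated over normal diet livers, with overlapping groups in both. Without SCL-treated replicate 3 these values were 0.22 for Cd14 and 0.55 for Cd36.

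NF-kB subunits, kinases and inhibitors, 24 tested, had medians of 0.055 for high-fat diet over normal diet, 0.048 for SCL-treated over normal diet and -0.12 for SCL-treated over high-fat diet livers. Tnfaip3 encodes A20, an NF-kB target that ends the signal, and was at 1.36, 0.970 and 1.14 CPM in SCL-treated livers, 5.23, 2.43 and 0.956 CPM in high-fat diet livers, and 4.51, 5.88 and 2.60 CPM in normal diet livers. The SCL-treated libraries were all below the normal diet libraries, while high-fat diet replicate 3 was lower still. The log2 fold change was -1.89 (SE 0.61, edgeR adjusted p = 0.665) over normal diet and -1.32 (SE 0.60, edgeR adjusted p = 1.00) over high-fat diet livers, or -0.54 over high-fat diet livers without high-fat diet replicate 1. Bcl3, an atypical IkB protein, gave -0.97 (SE 0.46) for SCL-treated over normal diet and -0.80 (SE 0.46) for SCL-treated over high-fat diet livers. Its groups overlapped in the first comparison and were separate in the second. The first value was -0.42 without normal diet replicate 1. The second was -0.51 without SCL-treated replicate 2 and -0.53 without high-fat diet replicate 1. For high-fat diet over normal diet livers, Ikbke, a kinase related to the IkB kinases, gave 0.70 (SE 0.45) with separate groups, and Traf2, an adaptor of TNF receptors, gave 0.46 (SE 0.37) with overlapping groups, and -0.0058 without high-fat diet replicate 3.

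Inflammasome genes, 13 tested, had medians of 0.47 for high-fat diet over normal diet, 0.48 for SCL-treated over normal diet and 0.099 for SCL-treated over high-fat diet livers, and Nlrp3 itself was below 0 in the first and second of these. Pycard encodes the adaptor ASC and gave 1.08 (SE 0.54) for high-fat diet over normal diet livers, and Nlrp12, another member of the receptor family, gave 0.91 (SE 0.43), or 0.47 without high-fat diet replicate 3. Casp4, the caspase of the non-canonical inflammasome, was at 5.85, 8.64 and 12.02 CPM in SCL-treated livers, against 5.79, 2.65 and 3.61 CPM in normal diet livers (log2 fold change 1.13, SE 0.41, edgeR adjusted p = 0.665). The groups were separate by a small margin between the lowest SCL-treated and the highest normal diet library. Nek7, a kinase that NLRP3 needs for assembly, gave -1.502 (SE 0.67) for SCL-treated over normal diet and -1.32 (SE 0.67) for SCL-treated over high-fat diet livers, and P2rx7, an ATP-gated channel that activates NLRP3, gave -1.20 (SE 0.61) for SCL-treated over high-fat diet livers. Without high-fat diet replicate 1 the SCL-treated over high-fat diet values were -0.45 for Nek7 and -0.22 for P2rx7. The groups of Pycard, Nlrp12, Nek7 and P2rx7 overlapped.

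Other NF-kB targets and adhesion molecules, 22 tested, had medians of 0.098 for high-fat diet over normal diet, 0.28 for SCL-treated over normal diet and 0.076 for SCL-treated over high-fat diet livers. Lcn2 encodes lipocalin-2, an acute-phase protein that binds iron carriers, and was at 2.99, 9.12 and 136.9 CPM in SCL-treated livers, 0.052, 11.9 and 6.86 CPM in high-fat diet livers, and 2.68, 2.36 and 4.48 CPM in normal diet livers. SCL-treated replicate 3 alone was far above the rest. The log2 fold change of Lcn2 was 3.001 (SE 1.41) over high-fat diet livers, and -0.045 without SCL-treated replicate 3. Saa4, a constitutive serum amyloid A, was at 930.7, 462.1 and 876.5 CPM in SCL-treated livers, against 1772, 1593 and 1477 CPM in normal diet livers (log2 fold change -1.09, SE 0.36, edgeR adjusted p = 0.665), with separate groups. Being constitutive, Saa4 is not read here as a report of NF-kB activity, though it counts in the values of this list. For high-fat diet over normal diet livers, Mmp9, a gelatinase, gave 1.498 (SE 0.74) and Plau, the urokinase, gave -1.26 (SE 0.59), both with separate groups. Mmp9 was at 1.52, 0.785 and 0.608 CPM in high-fat diet livers, against 0.244, 0.288 and 0.506 CPM in normal diet livers. At these low levels a few reads decide whether its groups are separate. Without high-fat diet replicate 1 its value was 0.99. Ier3, an early response gene, gave 0.61 (SE 0.32) for SCL-treated over high-fat diet livers.

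**Figure D4:**
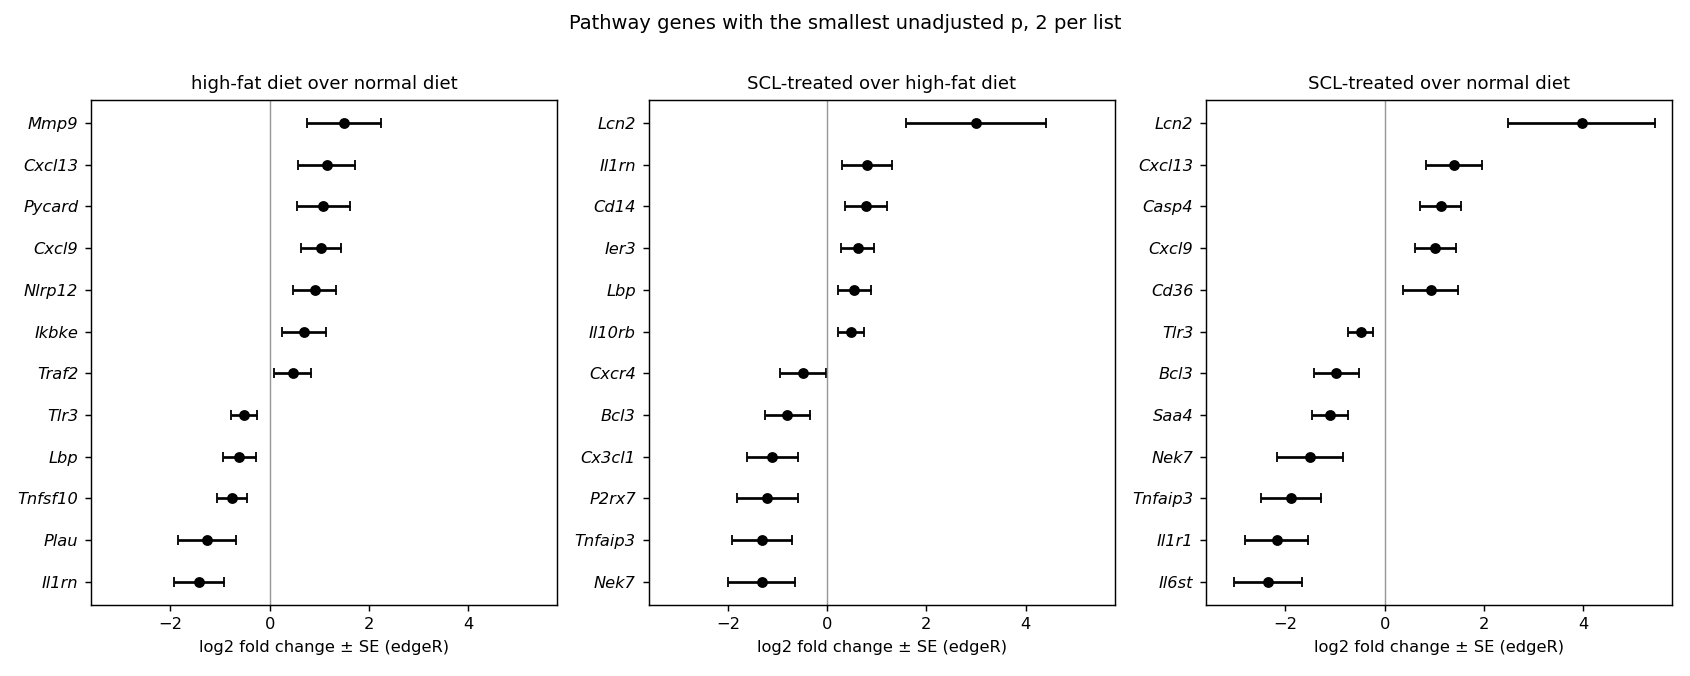
Log2 fold change (horizontal axes) of the 2 genes with the smallest unadjusted p in each of the 6 pathway lists, for each comparison, with bars of 1 SE from edgeR's fit. No gene passed the adjusted threshold of 0.05; Lcn2 shows the widest bars, at 3.97 ± 1.48 for SCL-treated over normal diet livers.

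Marker genes of the cells that could supply these transcripts varied between libraries. The 12 markers of Kupffer cells and macrophages summed to 658, 269 and 765 CPM in SCL-treated livers, 450, 679 and 298 CPM in high-fat diet livers, and 819, 838 and 619 CPM in normal diet livers. The 2 libraries over 40% mitochondrial were the lowest, and the groups overlapped. Clec4f, which marks Kupffer cells, was at 174, 66.9 and 273 CPM in SCL-treated, 102, 154 and 52.2 CPM in high-fat diet and 225, 238 and 153 CPM in normal diet livers. Markers of sinusoidal endothelium, 9 of 10 genes in both tables, summed to 277 to 311 CPM in SCL-treated, 229 to 292 CPM in high-fat diet and 299 to 363 CPM in normal diet livers, so the high-fat diet libraries lay below the normal diet libraries for this sum. Hepatocyte markers, which define the labelled tissue, summed to 82680 to 246989 CPM in SCL-treated, 79422 to 161976 CPM in high-fat diet and 163810 to 203192 CPM in normal diet livers. The high-fat diet libraries were again all below the normal diet libraries, by a small margin. Taken singly, 2 of 11 tested macrophage, 1 of 9 endothelial and 1 of 12 hepatocyte markers were separate and lower in high-fat than in normal diet livers, and 0 higher. In that lower direction 5.27% of all tested genes were separate. In SCL-treated against normal diet livers, 3 of 11 macrophage markers were separate and lower and 0 higher, beside 7.81% of all genes lower. There, 0 endothelial markers were separate, and 1 hepatocyte marker was lower and 1 higher. The part of these cell types in the values of the 10 genes was not tested.

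**Figure D5:**
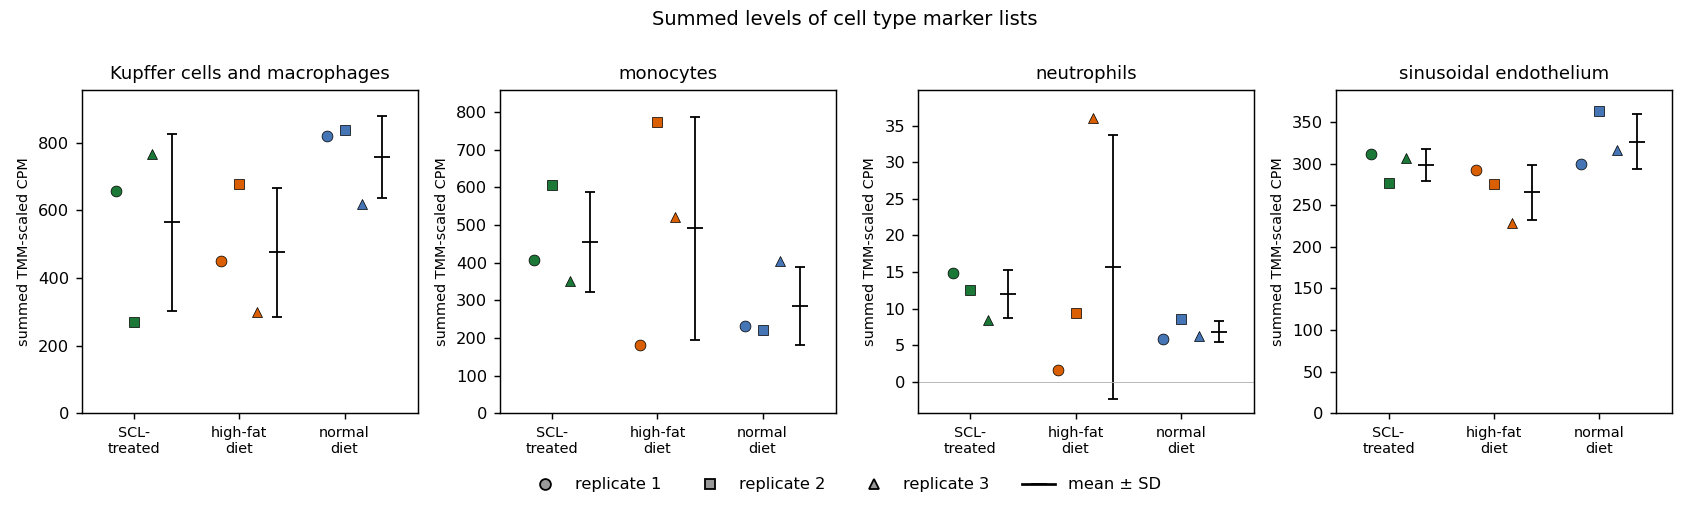
Summed TMM-scaled CPM (vertical axes) of 4 marker lists in each library by group, with points for replicates and bars for the mean ± SD of 3 libraries. Macrophage markers are lowest in SCL-treated replicate 2, at 269 CPM, and high-fat diet replicate 3, at 298 CPM, and the neutrophil sum is highest in high-fat diet replicate 3, at 36.1 CPM.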

How the data were processed

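Per the labels' protocols, rat liver RNA was extracted with Trizol and prepared with a NEBNext Ultra kit. In the 2 tables the authors deposited, the high-fat diet libraries stand beside either the SCL-treated or the normal diet libraries. Raw counts, the same counts scaled by a size factor (a signal), and FPKM are given per library, per the file headers, together with a log2 fold change, a p-value and an adjusted p-value of the authors. DESeq2 (no version) and mm9, a mouse build, are named in the submitters' processing notes. Aligner, counter and use of strand: not given in the sources used here. Overlapping genes and close copies, among them Cxcl1 and Cxcl2, are therefore uncertain. Of the 15565 shared symbols, 14419 (92.6%) matched rat RefSeq genes. Counts of the high-fat diet libraries differed between the tables for 0 shared genes.

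edgeR 4.0.16 (R 4.3.3) was run on the deposited counts, with 1 model for the 9 libraries, group as its term, 6 residual degrees of freedom, TMM scaling, and filterByExpr at a minimum count of 10, leaving 12041 genes. SEs were derived from each log2 fold change and its F value. Benjamini-Hochberg adjustment covered all tested genes, with calls made under 0.05. The fit was tested on simulated data. Exact permutation tests used scipy 1.17.1. Intervals and the limit for a count of 0, which is 3 reads, cover counting error only. Groups were called separate where the lowest value of one exceeded the highest of the other.

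The members, lists and tests were chosen with earlier results of these data known. All 10 members are named. From the pathway lists, every called gene is named, and the 2 genes of smallest unadjusted p per list and comparison. For likeness, the 2 nearest genes per tested member are named. Alternatives were other scalings, DESeq2 1.42.0, no filter on counts, fits of 6 libraries, a replicate block, the mitochondrial share as a covariate, and leaving out libraries. The alternatives for separate groups were chosen after seeing the data.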

Additional observations from a re-analysis of the deposited data

How the results depend on the processing

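Each of the 27 member results, 9 genes in 3 comparisons, was recomputed under 18 alternatives, and the number of members called was 0 in every comparison and alternative, with a lowest adjusted p of 0.285. The sign changed in at least 1 alternative for 13 of the 27. The cause of each change below was not tested. The number of all genes called for high-fat diet against normal diet was 1, and became 0 with library totals alone, 50 with DESeq2, 2 with no count filter, 0 with only the 6 libraries compared, 0 without the 2 libraries over 40% mitochondrial, and 1 to 4 with 1 library left out. For SCL-treated against high-fat diet it was 0, and 1 with DESeq2. For SCL-treated against normal diet it was 1, and became 0 with library totals alone, 40 with DESeq2, 0 without those 2 libraries, and 0 to 1 with 1 library left out. Ccl2 in SCL-treated over normal diet livers ranged from 1.26 to 2.37 on the log2 scale, with adjusted p from 0.325 to 0.995.

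Within a gene, deposited FPKM follows the library totals, so those 2 settings count as 1. Separate groups, beside the share of all tested genes separate in either direction under the same setting, were as follows. For high-fat diet against normal diet, in place of 2 members, there was 1 (Nfkbia) under library totals and 1 (Nfkbia) under deposited FPKM, beside 9.72% in both. There were 3 without the 2 libraries, with Icam1 higher and Nfkbia and Nlrp3 lower, beside 15.6%, and 2 when scaled to non-mitochondrial reads, with Icam1 higher and Nfkbia lower, beside 12.8%. For SCL-treated against high-fat diet, in place of 0, there was 1 (Ccl2, higher) under library totals and 1 (Ccl2, higher) under FPKM, beside 5.44%, 1 (Icam1, lower) when scaled to non-mitochondrial reads, beside 3.76%, and 2 without the 2 libraries (Ccl2 higher, Il1a lower), beside 28.3%. For SCL-treated against normal diet, in place of 1, there were 2 under library totals and 2 under FPKM (Ccl2 higher, Nfkbia lower), beside 17.2%, and 2 without the 2 libraries (Ccl2 higher, Il1a lower), beside 30.9%.

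Log2 fold changes reversed as follows. With the mitochondrial share as a covariate, high-fat diet over normal diet was -0.28 for Il1b, SCL-treated over high-fat diet was -0.10 for Il1a, and SCL-treated over normal diet was -0.23 for Il1b, 0.21 for Icam1, 0.23 for Tlr4 and 0.037 for Nlrp3. Other values kept their sign there but moved. Among them, high-fat diet over normal diet was 0.58 for Icam1, 0.17 for Ccl2, -0.78 for Il1a and -0.17 for Tlr4. Il1a in SCL-treated over normal diet was -0.89. Without the 2 libraries, Traf2 was -0.0058 in high-fat diet over normal diet. In the same setting SCL-treated over high-fat diet was -0.83 for Il1a, -0.33 for Il1b, -0.032 for Nfkbia and -0.14 for Tlr4, and SCL-treated over normal diet was -0.060 for Il1b and 0.12 for Icam1. With library totals alone, which moved the median of all genes to -0.19 for SCL-treated over high-fat diet, Il1a was -0.084 and Il1b -0.11, and Tlr2 was -0.028 over normal diet.

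Leaving out 1 library of the groups compared moved 25 of the 27 member results, and 21 of 36 results of other named genes, by over 1.5 times or across 0, and none of these results was called. Those that crossed 0 follow. With 1 library left out, high-fat diet over normal diet ranged from -0.22 to 1.02 for Cxcl1 and from -0.0058 to 0.65 for Traf2. SCL-treated over high-fat diet ranged from -0.83 to 0.46 for Il1a, -0.42 to 0.38 for Il1b, -0.032 to 0.67 for Tlr4, -0.74 to 0.049 for Cxcr4 and -0.045 to 3.89 for Lcn2. SCL-treated over normal diet ranged from -1.10 to 0.18 for Il1a, -0.060 to 0.62 for Il1b, -1.34 to 0.096 for Cxcl1, -0.36 to 0.12 for Icam1, -0.62 to 0.029 for Tlr4 and -0.41 to 0.12 for Nlrp3.

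Same-numbered libraries did not deviate together in every pair (correlations of -0.29 to 0.60, -0.35 to 0.34 and -0.15 to 0.17), so the replicate numbers were not taken to pair the samples. With a replicate block, 1, 0 and 1 genes were called in the 3 comparisons, and Il1a in SCL-treated over high-fat diet livers was -0.12. Among the members, depth limits Ccl2, Cxcl1 and Cxcl2 most, with 0 to 58 reads in a library.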
